A study of Mus musculus with 6 samples.

Results

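Collagens are the triple-helical proteins of the extracellular matrix, and each molecule is wound from 3 chains that are encoded by separate genes or by copies of the same one. Fibrillar types form the cables of connective tissue. Type IV forms the sheet of the basement membrane, the layer that wraps Schwann cells and blood vessels in peripheral nerve. Other types coat fibrils, link them to cells or span the cell membrane. The 44 chains described here are all protein-coding rows of the deposited gene table whose symbol has the form of a collagen α chain (Col, the type, a and the chain number), of 45777 genes in all. By structure, 11 are fibrillar, 6 are type IV, 3 belong to types XV, XVIII and VII at basement membrane zones, 6 are type VI, 9 sit on fibril surfaces (the FACIT group and its relatives), 3 form short-chain networks, 4 span the membrane and 2 belong to no such class.

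RNA was sequenced from cultures that the labels call DRG neurons, the sensory neurons of the dorsal root ganglia, from 8-week-old C57BL/6 wild-type mice labelled female. Oncomodulin is a calcium-binding protein of the parvalbumin family. The 3 control libraries came from cultures given PBS, and the other 3 from cultures that had 12 hours with recombinant oncomodulin (ONCM) at 100 ng/ml. The labels name biological replicates but no separate animals or cultures, so the spread behind each p-value is that between these samples and may be technical. The comparison asked how chain transcripts differed after oncomodulin.

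Library totals ran from 53770820 to 64477014 counts. Levels of one gene are given as CPM, counts scaled to a common library size by TMM. Levels of different genes are compared as TPM, which also divides by transcript length. A floor of 3 counts corresponds to 0.0465 to 0.0558 CPM and covers counting error only. The libraries did not match their labels in sex-linked transcripts. Xist, made from the inactive X chromosome of females, was at 0.485 to 0.588 CPM in the PBS libraries and at 413 to 513 CPM with ONCM, and the Y-linked transcript Ddx3y was at 58.1 to 62.4 and at 15.1 to 16.9 CPM. No library of either group resembled the other in these genes, so for every chain the treatment cannot be told apart from the sex or source of the cells, and removing a library would not separate them.

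The cultures held transcripts of several cell types. Sensory neuron markers summed to 15307 to 15826 CPM with PBS, against 15031 to 16012 CPM with ONCM, and Schwann cell markers to 2557 to 2612 and 2570 to 2686 CPM. These sums overlapped, but most of their markers moved: of 8 neuronal markers 2 rose and 4 fell, among them Tubb3 (0.80 on the log2 scale), Rbfox3 (-0.67) and Snap25 (-0.53), and of 7 Schwann cell markers 4 rose and 1 fell. Of 6 satellite glia markers, 1 rose and 1 fell. The 7 fibroblast markers summed to 173 to 180 and 301 to 308 CPM, and 4 rose. Most of the sum was the matrix proteoglycan gene Dcn, at 144 ± 2.97 and 255 ± 3.48 CPM (SD, n = 3 per group). The 8 macrophage markers, all of which rose, summed to 28.4 to 31.6 and 90.0 to 92.6 CPM. Endothelial markers went from 129 to 135 up to 156 to 162 CPM (5 of 7 rose), and mural cell markers, of pericytes and vessel muscle, from 143 to 145 down to 105 to 107 CPM (3 of 6 tested fell, 1 rose). At an adjusted p under 0.05 by edgeR, 48.3% of all genes tested passed, 23.9% rising and 24.4% falling. The shares that passed were 33.3% of satellite glia, 57.1% of fibroblast, 66.7% of mural, and 71.4% of Schwann cell and of endothelial markers. They were 75% of sensory neuron and 100% of macrophage markers. No marker of these lists was at 0 in all libraries. The part of these shifts in any collagen value was not tested, and fewer cells of a type and less RNA per cell cannot be told apart in such samples.

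Collagen transcripts as a whole were slightly higher with ONCM, a mean of 808 TPM with PBS and 836 TPM with ONCM, and their make-up differed. The TPM of all 44 chains summed to 807, 817 and 801 with PBS and to 824, 847 and 837 with ONCM. Without the type V chain gene Col5a3, the sum was 745, 754 and 739 with PBS and 713, 731 and 724 with ONCM. On TPM all ONCM sums were higher with that gene and lower without it. On CPM all 44 chains summed to 1973 to 2011 with PBS and 2084 to 2139 with ONCM, with no overlap. The CPM sums without Col5a3 overlapped, at 1824 to 1858 with PBS and 1804 to 1851 with ONCM. By the TPM of each class, fibrillar chains summed to 209 ± 2.74 with PBS and 256 ± 4.14 with ONCM (SD, n = 3 per group), and without Col5a3 to 147 ± 2.42 and 142 ± 1.98, where the CPM overlapped (362 to 373 and 360 to 370.0). Type IV chains went from 290 ± 2.52 to 249 ± 3.49, short-chain network chains from 27.1 to 29.3 down to 20.2 to 20.6, and the chains of types XV, XVIII and VII from 120 ± 0.442 to 138 ± 3.73.

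**Figure D1:**
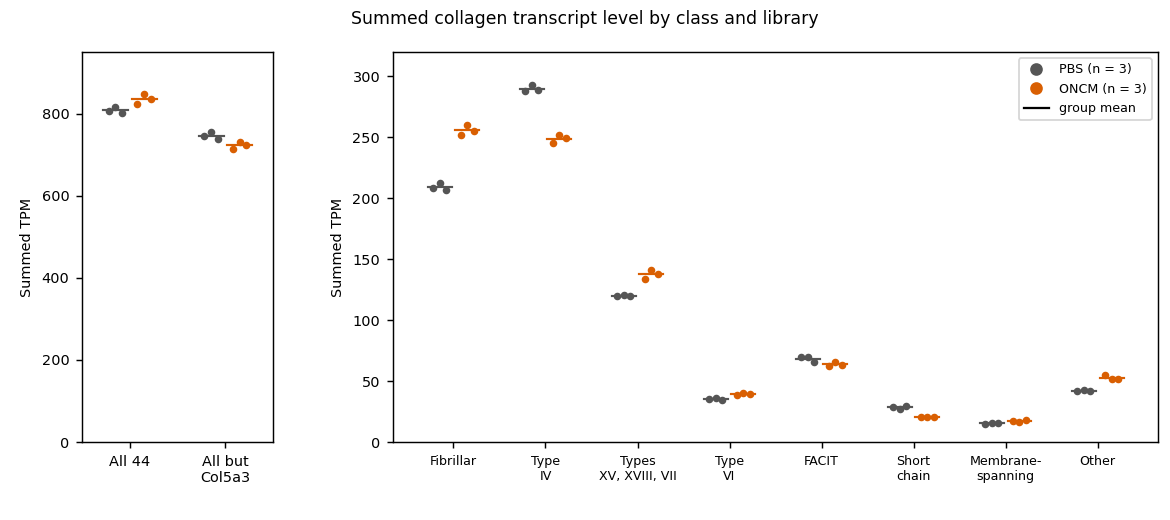
Summed TPM of the collagen chains in each library, for all 44 chains with and without Col5a3 (left) and by class (right); points are libraries and lines are group means. Type IV chains lie lower in all ONCM libraries (245 to 252, against 288 to 293 with PBS), and fibrillar chains lie higher (252 to 260, against 207 to 212).

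A low count filter was passed by 43 chains, and Col9a1, a cartilage chain, was not tested, with 4, 8 and 0 counts in the PBS libraries and 0 in each ONCM library. By edgeR's quasi-likelihood test with Benjamini-Hochberg adjustment over all genes, 17 of the 43 rose and 10 fell at an adjusted p under 0.05. Of all 20354 genes tested, 23.9% rose and 24.4% fell, and 48.3% passed in either direction, against 62.8% of these chains. Among genes with a mean of at least 1 CPM the share was 56.8% of all genes and 76.5% of the 34 such chains, 17 of which rose and 9 fell. On log2(TPM + 1) with limma, 14 chains rose and 9 fell, where 17.8% of all genes rose and 27.7% fell, so that rises were 39.2% of all calls on TPM and 49.5% on counts. Log2 fold changes of the chains ran from -0.81 to 1.24, with a median of 0.02. Their median absolute log2 change was 0.35, against 0.23 over all genes. Of the chains 2 passed and rose at least 2-fold and none fell that far, which is 4.65%, against 8.19% of all genes that passed and moved at least 2-fold in either direction. The groups did not overlap in 29 of the 43 chains, against 55.6% of all genes.

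**Figure D2:**
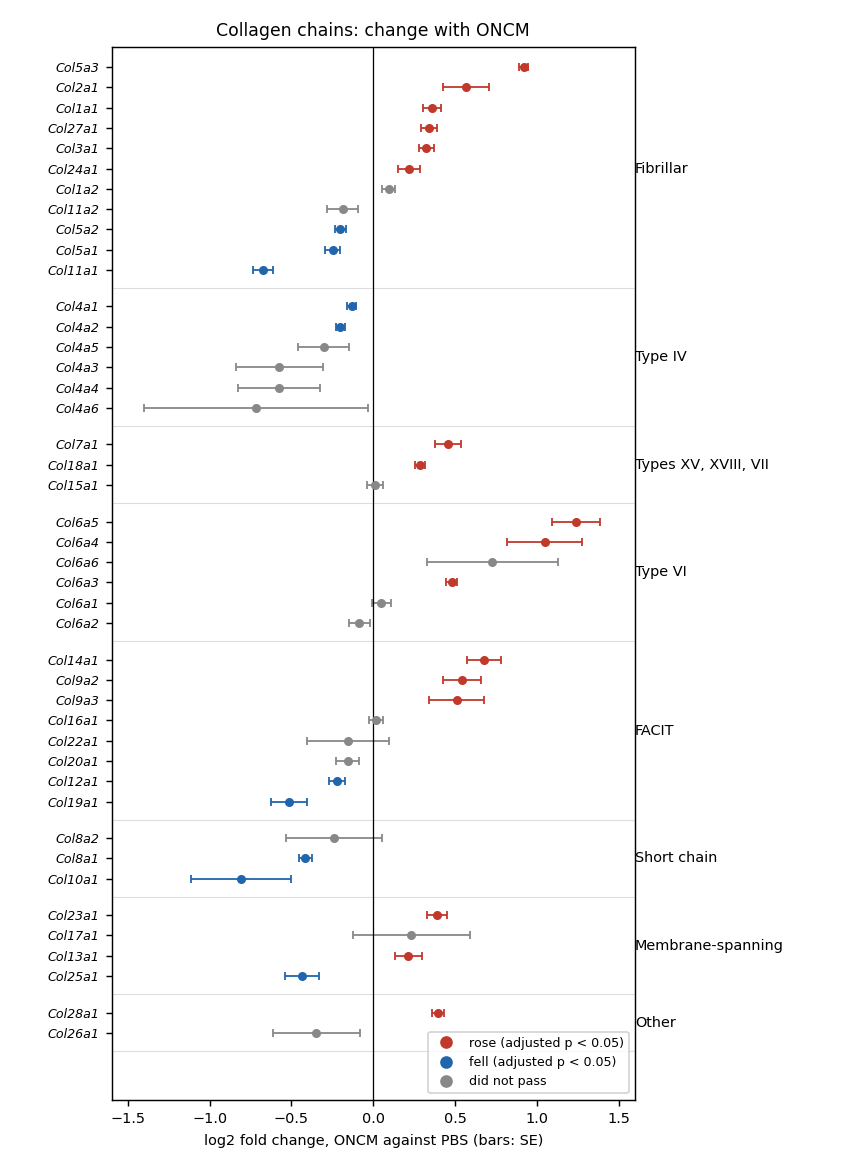
log2 fold change of ONCM against PBS for the 43 tested chains, ordered by class, with bars for the standard error (n = 3 per group) and colours for the call by edgeR. Every type IV point lies below 0, and the fibrillar class runs from -0.67 for Col11a1 to 0.92 for Col5a3.

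The fibrillar class split, with 6 of 11 chains raised, 3 lowered and 2 not passing. In this class 81.8% passed, against 48.3% of all genes and 56.8% of genes with a mean of at least 1 CPM. Col5a3, which encodes the α3 chain of type V collagen known from developing peripheral nerve (chromosome 9, 20770050 to 20815117), was at 149, 153 and 151 CPM in the PBS libraries and at 280, 289 and 288 CPM with ONCM. The ONCM libraries were all far above the PBS libraries, 0.92 on the log2 scale (SE 0.03, edgeR adjusted p = 2e-14) or 1.89-fold. It was the 4th most abundant chain by TPM with PBS (62.6 ± 0.334) and the 3rd with ONCM (114 ± 2.25; SD, n = 3 per group).

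The other chains of the same collagen type went the opposite way. Col5a2, on chromosome 1, was at 120, 122 and 120 CPM in the PBS libraries and at 107, 104 and 105 CPM with ONCM, and fell by 0.20 on the log2 scale (SE 0.03). Col5a1, the chain present in nearly every type V molecule, was at 37.1, 39.5 and 37.1 CPM and then at 31.1, 31.6 and 32.9 CPM, and fell by 0.25 (SE 0.05). Both sets of ONCM libraries lay below all PBS libraries. Per length, Col5a3 stood to Col5a1 at 5.50, 5.26 and 5.59 with PBS and at 12.4, 12.6 and 11.9 with ONCM. Its ratio to Col5a2 was 1.34, 1.34 and 1.36 with PBS and 2.84, 3.00 and 2.97 with ONCM. These comparisons were picked after the values of Col5a3 were seen and carry no test.

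Type XI, a close relative of type V that sets fibril width in cartilage, held the largest fall among chains of at least 1 CPM. Col11a1 was at 24.3, 24.8 and 23.9 CPM in the PBS libraries and at 16.0, 15.9 and 13.9 CPM with ONCM, -0.67 on the log2 scale (SE 0.06, edgeR adjusted p = 3.07e-08). Its ONCM libraries were all far below its PBS libraries. Its partner Col11a2 was at 5.32, 5.26 and 5.29 CPM and at 4.80, 4.68 and 4.46 CPM and did not pass (-0.19, SE 0.09, adjusted p = 0.107 by edgeR), though its groups did not overlap.

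The stretches of sequence just before the annotated starts of these genes are shown because they flank the chain with the largest rise above 10 CPM and the one with the largest fall above 1 CPM, both picked after their values were seen. They are from RefSeq on GRCm38.p6, 5′ to 3′ on the strand of the gene, without transcribed bases, with capitals for a CCAAT box (CCAAT) and a GC box (GGGCGG) on either strand. The Col5a3 stretch is chr9:20815118-20815317 on the minus strand, and the Col11a1 stretch is chr3:114030290-114030478 on the plus strand.
Col5a3: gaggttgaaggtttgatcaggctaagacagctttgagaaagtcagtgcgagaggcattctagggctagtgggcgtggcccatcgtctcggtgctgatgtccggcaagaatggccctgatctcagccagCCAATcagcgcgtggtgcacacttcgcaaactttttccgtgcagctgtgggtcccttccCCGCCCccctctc
Col11a1: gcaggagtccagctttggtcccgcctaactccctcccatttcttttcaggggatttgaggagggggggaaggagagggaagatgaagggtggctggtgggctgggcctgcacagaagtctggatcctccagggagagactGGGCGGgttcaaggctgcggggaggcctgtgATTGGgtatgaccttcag
Both stretches held both motifs. RefSeq windows of 300 bases, 250 before and 50 after a start, were matched for 35 of the 44 chains, in 38 windows. The 9 chains not matched were Col1a1, Col2a1, Col4a3, Col5a2, Col9a3, Col12a1, Col14a1, Col22a1 and Col26a1. A GC box was in 60.5% of the collagen windows and 35.7% of 32851 windows of all genes, and a CCAAT box in 34.2% and 37.4%. A TATA box (TATAAA) was in 13.2% and 13.6%, and TTCNNNGAA, the palindrome bound by STAT factors, in 5.26% and 8.30%, here the windows of Col28a1 and Col6a5. None of these strings contains another, both strands were searched, and a match is only a match of letters.

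Types I and III are the main cables of nerve connective tissue. By TPM with PBS, their most abundant chain was Col1a2, the 7th of the 44. Col3a1, the type III chain, rose from 25.3, 26.3 and 26.8 CPM to 33.2, 31.5 and 33.5 CPM, a log2 change of 0.32 (SE 0.05). Col1a1, the α1 chain of type I, rose from 23.0, 23.0 and 23.9 CPM to 27.5, 30.1 and 32.0 CPM, by 0.36 (SE 0.06). In both genes the ONCM libraries lay above all PBS libraries. Col1a2, the α2 chain, was at 81.1, 84.7 and 81.8 CPM in the PBS libraries and at 83.9, 87.8 and 92.6 CPM with ONCM, and its groups overlapped. It did not pass (0.09, SE 0.04, adjusted p = 0.0546 by edgeR), but passed by DESeq2 (adjusted p = 0.0463), with RLE scaling (0.0403), with only genes of at least 1 CPM (0.0205) and without ONCM replicate 1 (0.0180), over a range of 0.0180 to 0.590 in the 15 alternatives. In the same libraries 4 of 7 fibroblast markers rose, against 23.9% of all genes. Their sum was at 173 to 180 CPM with PBS and 301 to 308 CPM with ONCM. Most of it was Dcn, at 144 ± 2.97 and 255 ± 3.48 CPM (SD, n = 3 per group). The fibroblast receptor gene Pdgfra did not pass (9.63 ± 0.983 and 10.2 ± 0.758 CPM). Pi16 (log2 fold change 0.09) and Dpt (0.36) did not pass either.

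By TPM with PBS the remaining fibrillar chains ranked from 15th (Col27a1, above Col1a1 at 18th) to 33rd (Col2a1). Col27a1, a cartilage chain, was at 32.0, 32.5 and 30.6 CPM in the PBS libraries and at 38.7, 42.1 and 39.6 CPM with ONCM, and rose by 0.34 (SE 0.05) with no overlap. Col24a1, a bone-associated chain, was at 12.4, 13.1 and 11.9 CPM and at 15.3, 14.8 and 13.5 CPM, again with no overlap. Its rise of 0.22 (SE 0.07) was lost on log2(TPM + 1) (0.13, limma adjusted p = 0.191), on log2(TPM + 0.1), and without PBS replicate 3, ONCM replicate 1 or ONCM replicate 2, with adjusted p from 0.00387 to 0.198 over the alternatives. Col2a1, the main cartilage chain, was rare, at 1.61, 1.77 and 1.94 CPM and at 2.58, 2.62 and 2.67 CPM. It rose by 0.57 (SE 0.14), with all ONCM libraries higher, and by 0.25 on log2(TPM + 1), a scale that understates changes of rare transcripts.

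**Figure D3:**
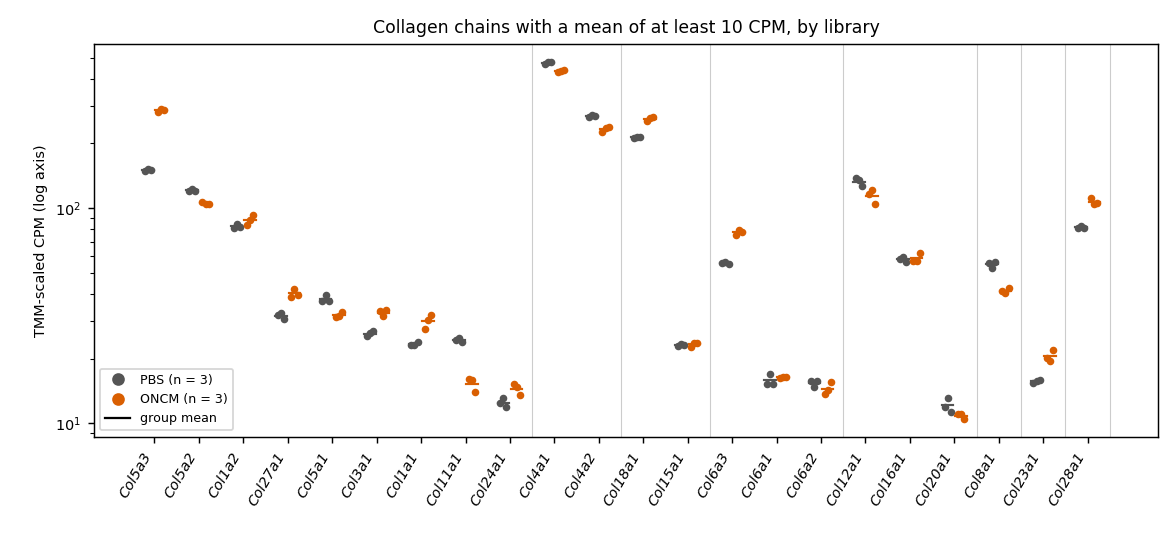
TMM-scaled CPM of each library on a log axis for the chains with a mean of at least 10 CPM over all libraries; points are libraries, short lines are group means and vertical lines part the classes. Col5a3 stands out with 280 to 289 CPM in the ONCM libraries against 149 to 153 CPM with PBS, while Col4a1 and Col4a2 shift by much less.

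With PBS, type IV held the largest summed TPM of the 8 classes, while with ONCM fibrillar chains did (256 against 249). Type IV had 2 of 6 chains lowered and 4 not passing, so 33.3% passed, against 48.3% of all genes. The log2 fold change of each of the 6 was below 0, with a median of -0.44 against -0.00212 over all genes tested. Col4a1 and Col4a2 encode the chains of the network found in nearly all basement membranes. They lie head to head on chromosome 8 (11198423 to 11312889 and 11312805 to 11449287) and their annotated exons share 22 bases on opposite strands, so a few reads could be counted for either. Col4a1 was at 468, 481 and 478 CPM in the PBS libraries and at 429, 432 and 441 CPM with ONCM, and fell by 0.13 (SE 0.03, edgeR adjusted p = 0.000534). Col4a2 was at 266, 272 and 269 CPM and at 226, 237 and 239 CPM, and fell by 0.20 (SE 0.03, edgeR adjusted p = 1.98e-05). In each gene all ONCM libraries were below all PBS libraries, by a small step.

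The rarer type IV chains, known from kidney filters, lung and some epithelia, were each at under 3 CPM. Col4a5 was at 2.46, 2.43 and 2.09 CPM in the PBS libraries and at 1.86, 2.23 and 1.56 CPM with ONCM, with overlap, and did not pass (-0.30, SE 0.16). It passed only without ONCM replicate 2 (-0.45, edgeR adjusted p = 0.0425), and was -0.18 without ONCM replicate 3 and -0.16 on log2(TPM + 1). Its neighbour Col4a6 (-0.72, SE 0.69) had 0 counts in ONCM replicate 1 and at most 0.572 CPM in any library. It was -0.16 without ONCM replicate 1 and -1.20 without ONCM replicate 2, and it enters the median of the class. Both are on chromosome X, the chromosome of Xist, whose level differed between the groups. Col4a3 and Col4a4, a further head-to-head pair on chromosome 1, were at -0.57 (SE 0.27) and -0.58 (SE 0.25), Col4a4 at -0.38 without ONCM replicate 3, and both between -0.09 and -0.12 on log2(TPM + 1). Neither passed, and neither overlapped between the groups, with 0.640 to 0.789 and 0.804 to 1.11 CPM with PBS, against 0.372 to 0.516 and 0.430 to 0.725 CPM with ONCM.

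Of the 3 chains at the borders of basement membranes, 2 rose and none fell. Of these 66.7% passed, against 48.3% of all genes and 56.8% of genes with a mean of at least 1 CPM. Col18a1, a heparan sulfate-bearing collagen whose end fragment is endostatin (chromosome 10, 77052178 to 77166530), was the 2nd most abundant chain by TPM in both groups. It was at 213, 215 and 214 CPM in the PBS libraries and at 253, 263 and 266 CPM with ONCM, a rise of 0.29 (SE 0.03, edgeR adjusted p = 2.09e-07) with no overlap. Col15a1, its nearest relative, was at 22.8, 23.5 and 23.2 CPM and at 22.7, 23.6 and 23.7 CPM, and did not pass (0.01, SE 0.05). Col7a1, the anchoring fibril chain of skin, rose from 7.47, 8.78 and 7.37 CPM to 11.0, 10.4 and 11.0 CPM, by 0.46 (SE 0.08) on counts and by 0.28 on log2(TPM + 1). In the same libraries 5 of 7 endothelial markers rose, against 23.9% of all genes, and their part was not tested.

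Genes of the basement membrane partners of type IV collagen also went both ways. Of 11 such partners 4 rose, 5 fell and 2 did not pass. So 81.8% passed, against 48.3% of all genes and 56.8% of genes with a mean of at least 1 CPM. The falls numbered 2 without PBS replicate 1 or PBS replicate 2 and 3 without ONCM replicate 3, and the rises numbered 2 on both TPM scales. Lama5, a laminin α chain, rose by 0.54 (48.6 ± 0.680 to 70.4 ± 2.10 CPM; SD, n = 3 per group), and Agrn, the agrin gene, rose by 0.47 (80.3 ± 3.11 to 111 ± 3.18 CPM). Nid1, nidogen, which bridges laminin and type IV collagen, fell from 133 ± 2.03 to 103 ± 4.10 CPM (log2 change -0.37). Hspg2, the perlecan gene, rose by 0.18 on counts, a call lost on log2(TPM + 1) (0.12, limma adjusted p = 0.0945, with 1.84e-05 to 0.0945 over the alternatives).

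Type VI forms beaded filaments close to cells, usually from an α1, an α2 and a long α3 chain. The short chains did not pass. Col6a1 was at 15.3, 16.9 and 15.3 CPM in the PBS libraries and at 16.3, 16.4 and 16.4 CPM with ONCM (log2 fold change 0.05, SE 0.06), and Col6a2 at 15.7, 14.7 and 15.8 and at 13.7, 14.3 and 15.5 CPM (-0.09, SE 0.06). Both overlapped between the groups and neither passed. Of the 6 chains 3 rose, all of them long ones, none fell and 3 did not pass, a share of 50%, near the 48.3% of all genes. Col6a3, the usual long chain, was at 55.7, 56.2 and 55.0 CPM and at 75.4, 79.5 and 77.4 CPM, a rise of 0.48 (SE 0.04, edgeR adjusted p = 2.7e-09) with no overlap.

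The alternative long chains lie side by side on chromosome 9, with 27823 bases between Col6a6 and Col6a5 and 27854 between Col6a5 and Col6a4. Col6a5 was at 1.19, 1.09 and 1.11 CPM in the PBS libraries and at 2.81, 2.52 and 2.70 CPM with ONCM. Col6a4 was at 0.495, 0.715 and 0.779 CPM and at 1.41, 1.57 and 1.11 CPM. Neither gene overlapped between the groups, and these were the chains raised at least 2-fold, by 1.24 (SE 0.15, edgeR adjusted p = 1.43e-06) and by 1.05 (SE 0.23, edgeR adjusted p = 0.000922). On log2(TPM + 1) the values of these rare transcripts were 0.38 and 0.24. Col6a6, at 0.156 to 0.322 CPM with PBS, against 0.298 to 0.645 CPM with ONCM, did not pass (0.73, SE 0.40), and its groups overlapped. Its value was 0.28 without ONCM replicate 3, 0.48 without PBS replicate 3 and 0.07 on log2(TPM + 1).

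Neighbours on a chromosome differed in whether they passed in the same direction. Besides the pairs named above, Col3a1, which rose, and Col5a2, which fell, lie 24624 bases apart on chromosome 1. Col19a1, which fell, lies 4944 bases from the untested Col9a1. Within 200000 bases of each other there were 8 neighbouring pairs in all, and the Col6a5 and Col6a4 pair and the Col4a1 and Col4a2 pair were those in which both genes passed in the same direction.

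Chains on fibril surfaces were divided, with 3 of 8 tested raised, 2 lowered and 3 not passing. Among them 62.5% passed, against 48.3% of all genes. Col12a1, a long surface chain of dense connective tissue and the most abundant of the class by TPM with PBS, was at 138, 135 and 127 CPM in the PBS libraries and at 116, 121 and 105 CPM with ONCM, and fell by 0.22 (SE 0.05). Its relative Col14a1 was at 3.71, 4.56 and 3.81 CPM and at 6.21, 6.86 and 6.18 CPM, and rose by 0.68 (SE 0.10, edgeR adjusted p = 2.58e-05), or by 0.42 on log2(TPM + 1). Neither gene overlapped between the groups. Col19a1, a chain made by some neurons and known from synapse formation in the brain, was at 5.32, 5.27 and 4.83 CPM and at 3.12, 3.95 and 3.71 CPM, and fell by 0.51 (SE 0.11) with no overlap, or by 0.30 on log2(TPM + 1).

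Col16a1, which links fibrils to other matrix, was at 57.8, 59.3 and 56.5 CPM in the PBS libraries and at 56.7, 57.1 and 61.9 CPM with ONCM, and did not pass (0.02, SE 0.04). Its groups overlapped. Col20a1 was at 11.9, 13.2 and 11.3 CPM and at 11.1, 11.0 and 10.5 CPM, with no overlap, and did not pass (-0.16, SE 0.07), except without PBS replicate 3 (-0.21, edgeR adjusted p = 0.0401), and was -0.10 without PBS replicate 2. Col22a1, a chain of tissue junctions, was at 0.651 to 1.21 CPM over all libraries and did not pass (-0.15, SE 0.25). Type IX coats cartilage fibrils. Col9a2 rose from 2.97, 2.70 and 2.96 CPM to 3.85, 4.06 and 4.68 CPM, by 0.54 (SE 0.12), with no overlap. Col9a3 was at 1.84, 1.77 and 1.73 CPM and at 1.93, 2.52 and 3.15 CPM, and its rise of 0.51 (SE 0.17) was lost under 5 of the 15 alternatives. It was 0.32 without ONCM replicate 3 (edgeR adjusted p = 0.132), and was also lost without PBS replicate 2 or 3 and on the TPM scale (0.28 on log2(TPM + 1)), with adjusted p from 0.00263 to 0.132 over the alternatives. Of its exon bases, 7.68% are shared with Tcfl5 on the opposite strand, and the strand setting of the counts is not given in the sources used here.

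In the short-chain network class 2 of 3 chains fell, or 1 where the call of Col10a1 was lost, against 24.4% of all genes. Col8a1, a chain made by vessel wall cells and beneath endothelium, was at 55.9, 52.9 and 56.4 CPM in the PBS libraries and at 41.2, 40.3 and 42.4 CPM with ONCM. All ONCM libraries were below all PBS libraries, -0.42 on the log2 scale (SE 0.04, edgeR adjusted p = 1.08e-07). The summed mural markers were lower in the same libraries, most of it from Rgs5 at 77.1 ± 0.284 and 48.8 ± 0.392 CPM (SD, n = 3 per group). Of the 6 tested, 3 fell, Abcc9 rose by 0.93, and Acta2 (0.29) and Notch3 (0.19) did not pass, with a median of 0.01. Their part in the value of Col8a1 was not tested. Col8a2, at 0.412 to 0.716 CPM, did not pass. Col10a1, of growth plate cartilage, was at 0.733 to 1.42 CPM and at 0.340 to 0.837 CPM, with overlap. Its fall of 0.81 (SE 0.30, edgeR adjusted p = 0.0359) was lost by DESeq2 (adjusted p = 0.0568), on TPM, and without PBS replicate 1 or 3 or ONCM replicate 2 or 3 (-0.51 without PBS replicate 3 and -0.54 without ONCM replicate 3). Its adjusted p ran from 0.0110 to 0.230 over the alternatives.

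Membrane-spanning collagens carry a short tail inside the cell and can be shed. Of 4 such chains 2 rose, or 1 where the call of Col13a1 was lost, 1 fell and 1 did not pass. By the main test 75% passed, against 48.3% of all genes. Col23a1 was at 15.4, 15.7 and 15.8 CPM in the PBS libraries and at 20.2, 19.4 and 22.0 CPM with ONCM, and rose by 0.39 (SE 0.06) with no overlap. Col25a1, a neuronal chain needed for motor axons to enter muscle, was at 6.08, 5.86 and 5.02 CPM and at 4.09, 4.45 and 3.98 CPM, and fell by 0.44 (SE 0.10) with no overlap. Col13a1, a chain of the neuromuscular junction, overlapped between the groups, at 7.87, 8.76 and 9.12 CPM and at 10.4, 9.04 and 10.5 CPM. Its rise of 0.21 (SE 0.08, edgeR adjusted p = 0.0406) was lost by DESeq2 (adjusted p = 0.0574), without TMM scaling, without the filter, on TPM (0.09 on log2(TPM + 1)), and without PBS replicate 1 or 2 or ONCM replicate 1 or 3. The range of its adjusted p was 0.0167 to 0.366 over the alternatives. Col17a1, of skin hemidesmosomes, was at 0.232 to 0.465 CPM and did not pass.

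Col28a1, a chain with von Willebrand A domains that is known from the surroundings of Schwann cells in peripheral nerve, was the 6th most abundant chain by TPM with PBS and the 5th with ONCM (41.3 ± 0.469 and 52.1 ± 2.00; SD, n = 3 per group). It was at 80.8, 82.6 and 81.2 CPM in the PBS libraries and at 112, 104 and 106 CPM with ONCM. All ONCM libraries were higher, a rise of 0.40 (SE 0.04, edgeR adjusted p = 2.93e-08). The summed Schwann cell markers overlapped between the groups while 4 of 7 rose and 1 fell, against 23.9% and 24.4% of all genes. Sox10 was at 200 ± 4.38 and 205 ± 8.39 CPM and did not pass. Col26a1, known from developing gonads, was at 0.550 to 1.32 CPM and did not pass (-0.35, SE 0.27). It was -0.06 without PBS replicate 2, -0.54 without PBS replicate 3 and -0.16 without ONCM replicate 2.

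Proportions of chains that share a molecule were set side by side. Ratios of TPM within a library were compared for 8 pairs by a two-sided exact permutation test. With 3 libraries against 3 it cannot give a p below 0.1, before or after adjustment over the pairs. Col1a1 stood to Col1a2 at 0.250, 0.239 and 0.258 with PBS and at 0.288, 0.302 and 0.304 with ONCM. Col6a1 stood to Col6a3 at 0.678, 0.736 and 0.691 and at 0.533, 0.516 and 0.521. In both pairs, and for Col4a1 to Col4a2 (1.71, 1.73 and 1.74 against 1.85, 1.78 and 1.80) and Col11a1 to Col11a2 (4.23, 4.51 and 4.25 against 3.09, 3.80 and 3.05), the groups did not overlap, each with the smallest exact permutation p of 0.1 and an adjusted p of 0.2. Ratios overlapped for Col5a1 to Col5a2 (0.248 ± 0.00654 and 0.240 ± 0.0101, exact p = 0.4; SD, n = 3 per group) and for Col6a1 to Col6a2 (1.01 ± 0.0844 and 1.11 ± 0.0742, exact p = 0.2). The pairs Col4a3 to Col4a4 and Col8a1 to Col8a2 overlapped too, each with an exact p of 0.9. Col4a5 to Col4a6 and Col9a1 to Col9a2 gave no ratio because a chain was at 0 in a library or was not tested.

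**Figure D4:**
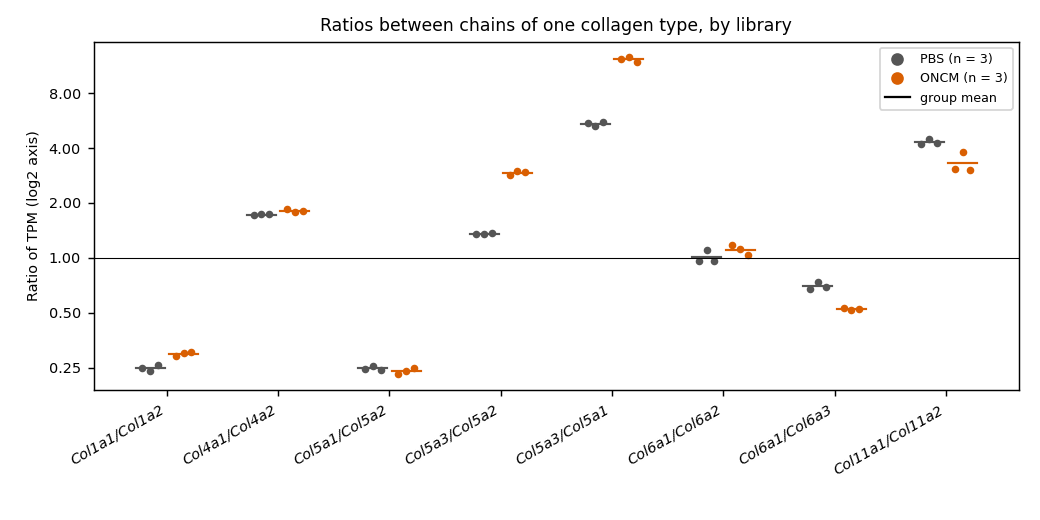
Ratio of the TPM of chains of the same collagen type in each library, on a log2 axis, with lines for group means. The ratios of Col5a3 to Col5a1 and to Col5a2 lie highest above their PBS values (12.3 against 5.45 and 2.94 against 1.35 on average), and Col5a1 to Col5a2 overlaps.

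Enzymes and chaperones that fold collagen in the secretory pathway did not move as 1 group. Among 22 such genes there were 8 that rose, 7 that fell and 7 others, with a median of -0.06 against -0.00212 over all genes. The 68.2% that passed stand beside 48.3% of all genes and 56.8% of genes with a mean of at least 1 CPM. Rises numbered 5 without ONCM replicate 2 and 3 on both TPM scales. Plod3, a lysyl hydroxylase that also adds sugars to collagen, rose by 0.43 (91.9 ± 2.31 to 124 ± 6.70 CPM; SD, n = 3 per group). P4hb, the shared β subunit of the prolyl 4-hydroxylases, rose by 0.20 and P4ha3, one of their catalytic subunits, by 0.42, while the prolyl isomerase gene Fkbp14 fell by 0.48. Serpinh1, the collagen chaperone HSP47, named after its values were seen, was at 282 ± 2.57 and 282 ± 19.3 CPM and did not pass.

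Cleavage outside the cell removes the end pieces of procollagen so that fibrils can form. Of its 11 genes 4 rose, 3 fell and 4 did not pass, or 63.6% passing against 48.3% of all genes. Bmp1, the main protease for the carboxyl end piece, was at 15.9 ± 0.516 CPM with PBS, against 32.6 ± 2.21 CPM with ONCM (SD, n = 3 per group), and rose by 1.04 (SE 0.06, edgeR adjusted p = 4.18e-11). Pcolce, which speeds that protease, rose by 0.73, and Furin, a convertase that activates proteases, by 0.28. Adamts3, which removes amino end pieces, fell by 0.50.

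Cross-linking and fibril assembly genes numbered 6 raised, 2 lowered and 4 not passing of 12, or 66.7% passing against 48.3% of all genes. Only 1 was lowered without PBS replicate 2 or with only genes of at least 1 CPM. Loxl2, a lysyl oxidase that cross-links type IV collagen, was at 7.05 ± 0.496 and 23.9 ± 1.70 CPM (SD, n = 3 per group), and rose by 1.77 (SE 0.07, edgeR adjusted p = 5.65e-13). Its relative Loxl4 fell by 0.90, from 20.9 ± 0.575 to 11.2 ± 0.773 CPM. Dcn and Lum, proteoglycans that bind fibrils, rose by 0.82 and 0.94. Dcn and Lum are also among the fibroblast markers.

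Of 11 tested receptors for collagen, 4 were raised, 3 were lowered and 4 did not pass. So 63.6% passed, against 48.3% of all genes and 56.8% of genes with a mean of at least 1 CPM. The platelet receptor gene Gp6 was at 0 counts in every library. Itgb1, the integrin β1 subunit shared by the collagen-binding integrins and many others, rose by 0.65 (424 ± 5.17 to 665 ± 16.1 CPM; SD, n = 3 per group), and Itga2, a collagen-binding α subunit, rose by 0.57. Itga11, a fibroblast collagen receptor, fell by 0.93 from 3.97 ± 0.496 to 2.09 ± 0.309 CPM, and Adgrg1, a receptor for type III collagen, fell by 0.13. On log2(TPM + 1) the rise of Itga2 was 0.27 and the change of Itga11 was -0.59, and 2 receptor genes rose on both TPM scales.

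Among collagenases and gelatinases, 3 of 5 tested genes rose and 2 did not pass. So 60% passed, against 48.3% of all genes and 56.8% of genes with a mean of at least 1 CPM. Mmp14, a membrane-bound collagenase, rose by 0.51 (52.7 ± 0.712 to 75.1 ± 3.44 CPM; SD, n = 3 per group), and Mmp2, the gelatinase it activates, by 0.64 (20.2 ± 0.888 to 31.3 ± 1.62 CPM). Mmp13, a collagenase, rose by 0.27, a call lost on the TPM scale and without PBS replicate 2 or ONCM replicate 2 (edgeR adjusted p = 0.0677 and 0.0900, with 0.00322 to 0.0923 over the alternatives). Ctsk, a lysosomal collagen protease, was at 5.08 ± 0.487 and 5.91 ± 0.681 CPM and did not pass, except without ONCM replicate 3 (edgeR adjusted p = 0.0447). Macrophage markers all rose in the same libraries, as did 4 of 7 fibroblast markers, against 23.9% of all genes. All these lists but the collagenases held genes that rose and genes that fell, and the part of the markers was not tested.

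**Figure D5:**
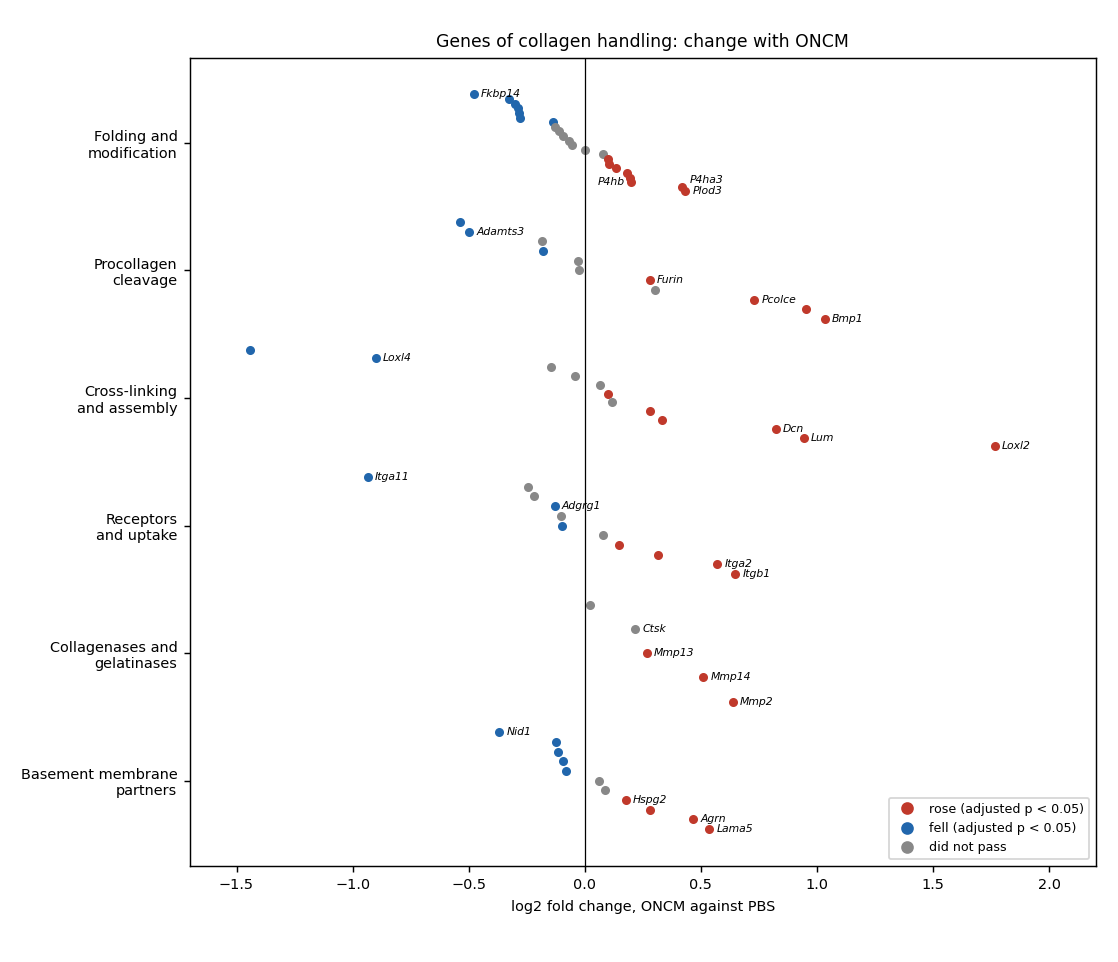
log2 fold change of ONCM against PBS for the tested genes of collagen folding, cleavage, cross-linking, reception, breakdown and basement membrane assembly; each point is a gene coloured by its edgeR call, and the names are those of the genes with the smallest p-values. Every list but the collagenases holds genes on both sides of 0, from Loxl2 at 1.77 to Fmod at -1.44, a fibril-binding proteoglycan gene picked after its value was seen.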

How the data were processed

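The authors deposited raw read counts, FPKM and TPM per gene for 6 libraries, per the file headers, and the submitters' processing notes name mm10. For the aligner, counter, annotation release and strand setting, nothing is stated in the labels or headers. Columns were matched to samples by the codes in the labels. The main test of the deposited counts used edgeR 4.0.16 under R 4.3.3 (filterByExpr defaults, TMM scaling, robust quasi-likelihood F-test, no covariate), which left 20354 of 45777 genes. An adjusted p under 0.05 counted as passing, and the SE is the log2 fold change divided by the square root of F. The TPM deposited by the authors gave levels across genes, and limma 3.58.1 on log2(TPM + 1) or log2(TPM + 0.1) was an alternative, as were DESeq2 1.42.0, other scalings and filters, a replicate block, leaving out chromosomes X, Y and MT, and leaving out each replicate. The FPKM that the authors deposited were also used for chain ratios, but within a library they give the same ratio as TPM by construction. Replicates differed by more than sampling noise (chi-square per degree of freedom of 2.76 to 7.09). Coordinates are RefSeq, GRCm38.p6, the assembly of mm10, and exon overlaps are from the GENCODE basic set on the same assembly. The test was also run on simulated counts in which few genes were changed. That run does not check the test at the share of genes called here. The text names tested chains, those of at least 1 CPM with every library, and up to 4 genes with the smallest p-values of each list. Members and lists were chosen with earlier results of these data known.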

Additional observations from a re-analysis of the deposited data

How the results depend on the processing

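Of the 27 chains that passed, 23 passed in the same direction under all 15 alternatives, and Col9a3, Col10a1, Col13a1 and Col24a1 lost their call under some, as given beside their values. Counts of chains that rose ran from 14 to 18 and of chains that fell from 9 to 10 over all alternatives. Of all genes, 4305 to 4655 rose and 4447 to 4882 fell when 1 library was left out. Of the 72 tested genes of the 6 lists of collagen handling, 29 rose on counts. On both TPM scales (limma on log2(TPM + 1) and on log2(TPM + 0.1)) 18 rose. Over all genes, rises also dropped, from 4869 on counts to 3631 and 3600 on these TPM scales. The cause was not tested. Values of chains that did not pass turned sign in places. On log2(TPM + 1) and log2(TPM + 0.1), the log2 fold change of Col16a1 was -0.044 and -0.0454, that of Col15a1 -0.0534 and -0.0577, and that of Col6a1 -0.010 and -0.0108. With 1 library left out at a time, Col16a1 ran from -0.0244 (without ONCM replicate 3, and -0.0051 without PBS replicate 3) to 0.0391, Col15a1 from -0.0038 (without PBS replicate 1) to 0.0302, and Col22a1 from -0.392 to 0.0353 (without ONCM replicate 1). The log2 difference of the Col4a3 to Col4a4 ratio was 0.05, and ran from -0.25 to 0.33 when a library was left out (-0.21 without PBS replicate 3 and -0.25 without ONCM replicate 3). That of Col8a1 to Col8a2 was -0.06, and ran from -0.25 to 0.21 (0.06 without PBS replicate 2 and 0.21 without ONCM replicate 2). With the replicate number as a block, 16 chains rose and 9 fell, and Col13a1 and Col10a1 lost their calls. Same-numbered libraries had correlations of deviations of -0.05, -0.01 and 0.0017. These values gave no sign of a pairing by number, but with 3 libraries per group they cannot exclude one. Depth limits the chains under 1 CPM, where 0 counts allow up to 0.0465 to 0.0558 CPM.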
